A study of Mus musculus with 13 samples.

Results

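The muscle-type miRNAs, or myomiRs, are the miRNAs cut from the mir-1, mir-133 and mir-206 hairpins. Their members here were all the listed arms of 6 mouse hairpins, mmu-mir-1a-1, mmu-mir-1a-2, mmu-mir-133a-1, mmu-mir-133a-2, mmu-mir-133b and mmu-mir-206, of 903 hairpins counted in all. These hairpins gave 9 of the 1514 pairs of a hairpin and a mature miRNA, and 6 of the 1384 mature miRNAs, namely miR-1a-3p, miR-1a-1-5p, miR-133a-3p, miR-133a-5p, miR-133b-3p and miR-206-3p. The 6 were picked because their counts stood out in these same libraries, so their differences between groups are given as a description, with no p-value.

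Small RNA was sequenced from the hippocampus and the prefrontal cortex (PFC) of TgR mice and of FVB/N mice, with 1 library per animal. The hippocampus was taken from 3 TgR and 3 FVB/N animals and the PFC from 4 TgR and 3 FVB/N animals. FVB/N is the inbred wild-type strain, and TgR mice are FVB/N mice that carry a transgene for the human "readthrough" acetylcholinesterase variant AChE-R under a minimal cytomegalovirus promoter-enhancer, with constitutive expression. The TgR animals were a mixed group in their behaviour, the age and sex of the sequenced animals are not given in the sources used here, and the labels do not say whether the same animals gave both regions. The transgene's own RNA is not measured in small RNA counts.

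MyomiRs are a textbook case of tissue-restricted miRNAs. In heart and skeletal muscle, miR-1 and miR-133a are processed from shared primary transcripts under control of the muscle factors SRF, MEF2 and MyoD, miR-1 favouring differentiation and miR-133 favouring proliferation of muscle precursors. miR-206 and miR-133b are made from a further locus in skeletal muscle, and miR-206 is known for its part in the re-forming of neuromuscular synapses, where acetylcholine is the transmitter. In brain tissue these miRNAs are known at far lower levels than in muscle.

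The sequences show how the hairpins pair up. RefSeq mature sequences (GRCm38.p6) were found for 5 arms of the member hairpins, and they are printed 5′ to 3′ with the seed, bases 2 to 8, in capitals, because the seed is the stretch by which a miRNA finds its targets. miR-206-3p, the arm of Mir206 that was counted here, lies on the plus strand of chromosome 1 at 20679055 to 20679076. miR-133b-3p, the counted arm of Mir133b, lies on the same strand at 20682834 to 20682855.
miR-206-3p: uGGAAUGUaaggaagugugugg
miR-133b-3p: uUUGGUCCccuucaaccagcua
The seed of miR-206-3p is that of the miR-1 family, and the seed of miR-133b-3p is that of the miR-133 family. The other arms of these 2 hairpins, miR-206-5p and miR-133b-5p, had no listed count in any of the 13 libraries, while the other arm of mir-1a-1, miR-1a-1-5p (chromosome 2, 180389057 to 180389079, plus strand), was listed with 0 to 4 counts. The 2 arms from the mir-1 and mir-206 hairpins are shown for their likeness outside the seed family.
miR-1a-1-5p: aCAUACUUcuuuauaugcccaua
miR-206-5p: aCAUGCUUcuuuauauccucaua
They agreed at 20 of 23 positions. Counted from 1 at the 5′ end of miR-1a-1-5p, the differences were A5G, G17C and C19U.

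Mir206 (chromosome 1, 20679010 to 20679082) and Mir133b (chromosome 1, 20682769 to 20682887) both fell in an exon of the lincRNA gene Gm28653 in the GENCODE M21 annotation of GRCm38, with 3686 bases between them. Mir1a-1 (chromosome 2, 180389048 to 180389124) and Mir133a-2 (chromosome 2, 180398379 to 180398482) were 9254 bases apart. No other GENCODE gene overlapped them, and in RefSeq both lay inside the lncRNA gene Mir1a-1hg (chromosome 2, 180385604 to 180401802). The genes of mir-1a-2 and mir-133a-1 lie on another chromosome, and a read of miR-1a-3p, miR-133a-3p or miR-133a-5p cannot say which copy it came from. The counts listed at the copies were identical for miR-133a-3p and differed by at most 2 for miR-1a-3p and by at most 3 for miR-133a-5p in any library, so each mature miRNA was taken from 1 hairpin. miR-133a-3p and miR-133b-3p are near-identical in sequence, so the share of counts given to each is uncertain.

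The libraries held 8769851 to 18385985 counts. Values are in CPM, the count as a share of the library total, set to a common scale with edgeR's TMM factors over all 13 libraries, and 3 counts, taken as the least that can be told from 0, corresponded to 0.163 to 0.342 CPM before that scaling. Intervals and floors of this kind cover counting error only, as the reads carry no molecular identifiers. The neuronal miRNAs miR-124-3p, miR-9-5p and miR-128-3p summed to 153331 to 259956 CPM, so the brain label held in every library. All 15 pairs of libraries of the same group differed by more than sampling noise, with a chi-square per degree of freedom of 27.3 to 306. Whether more cells of a type or more RNA per cell lies behind a level cannot be told apart in such bulk tissue.

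A single library stood apart in the myomiRs. PFC TgR replicate 4 was the highest of the 13 libraries for 4 of the 6 members, miR-1a-3p, miR-133a-3p, miR-133a-5p and miR-206-3p. Over the 646 mature miRNAs that passed the low-count filter, it was the highest library for 42 (6.50%). Relative to the mean of the other 3 PFC TgR libraries, miR-206-3p was 22.4-fold higher there, miR-133a-5p 8.03-fold, miR-1a-3p 4.76-fold and miR-133a-3p 3.12-fold. The median of that ratio over the 646 miRNAs was 1.05, it was over 2 for 15 of them (2.32%), and these 4 myomiRs were among them. miR-133a-5p passed the filter only with the help of this library, so its place there was set by the library in which it was high. The other 11 ranged from 2.08-fold for miR-6948-3p to 2.99-fold for miR-764-5p. They included miR-1298-5p (2.43-fold) and miR-1264-3p (2.38-fold), which belong to the list of 5 choroid plexus markers. They also included miR-1298-3p (2.49-fold) and miR-1264-5p (2.62-fold) from the same hairpins. The remaining markers of that list, miR-204-5p, miR-211-5p and miR-448-3p, were not among the 15. The most abundant of the 5, miR-204-5p, was at 499 to 589 CPM in PFC TgR and 441 to 658 CPM in FVB/N PFC. The main differences that use PFC TgR are therefore given with and without replicate 4.

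In the same library the remaining muscle-type and muscle-associated miRNAs differed in their distance from the group. miR-133b-3p, the neighbour of miR-206, was 1.63-fold above the mean of the other PFC TgR libraries. miR-499-5p, encoded in a slow myosin gene, was at 48.5 CPM, 1.20-fold that mean, the highest of its group but 6th of the 13 libraries. The miR-486 pair was also the highest of its group, with miR-486b-5p at 270 CPM (1.48-fold that mean) and miR-486a-5p at 251 CPM (1.47-fold). Both were 4th of the 13 libraries. miR-378a-3p (1.05-fold) and miR-378a-5p (1.02-fold) were close to the mean. The heart miRNA miR-208a-3p had 0 counts, and miR-208b-3p, encoded in the slow and fetal heart myosin gene, had 10 counts against 0 to 4 in the other 12 libraries. Smooth muscle markers (miR-143-3p and miR-145a-5p) summed to 2836 CPM there, the 6th highest of 13. The summed markers of neurons ranked 1st, red blood cells 4th, white blood cells 5th, and epithelium 13th. Those of endothelium, choroid plexus, and heart and slow muscle (49.2 CPM) each ranked 6th. The choroid plexus sum, 863 CPM, was the highest of the 7 PFC libraries, against 542 to 759 CPM in the other 6. The part of these in the raised myomiRs was not tested.

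**Figure D1:**
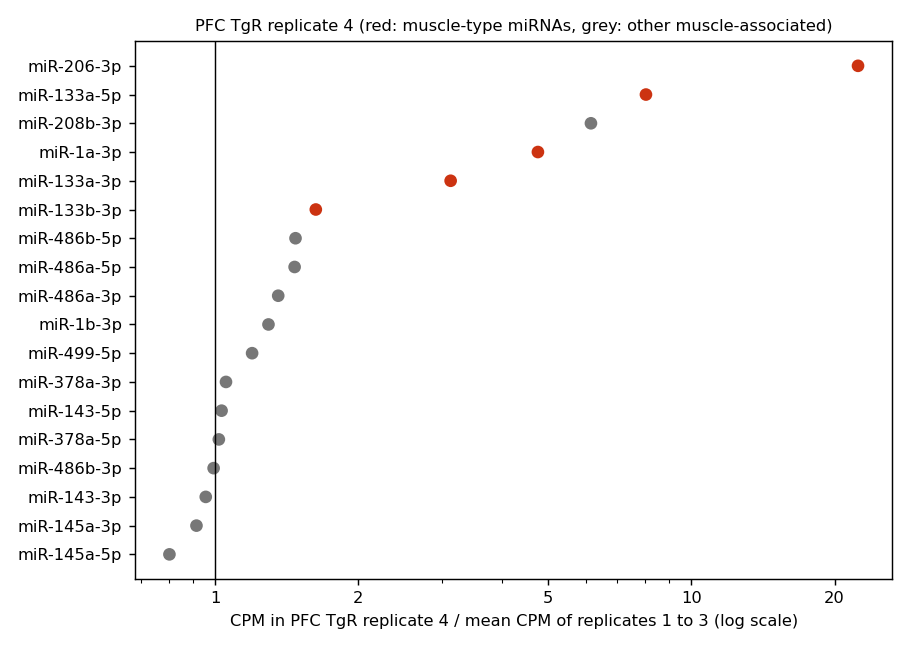
The horizontal log axis gives CPM in PFC TgR replicate 4 divided by the mean CPM of PFC TgR replicates 1 to 3, for mature miRNAs with at least 10 counts in replicate 4, with muscle-type miRNAs in red and the other muscle-associated miRNAs in grey. The ratio was 22.4 for miR-206-3p, 8.03 for miR-133a-5p, 4.76 for miR-1a-3p and 3.12 for miR-133a-3p, while smooth muscle miRNAs lay near or below 1 and miR-208b-3p, at only 10 counts, lay among the red points.

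miR-1a-3p was the most abundant member, with 2179 to 19726 counts per library, and its mean ranked between 99th and 136th among all mature miRNAs in the 4 groups. In FVB/N hippocampus it was at 223, 255 and 178 CPM, and in TgR hippocampus at 345, 388 and 405 CPM. Every TgR hippocampus lay above every FVB/N hippocampus. The means were 379 ± 31.1 CPM (SD, n = 3) in TgR and 218 ± 38.8 CPM (SD, n = 3) in FVB/N, a 1.74-fold difference, or 0.80 on the log2 scale (SE 0.17).

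In the PFC, miR-1a-3p was at 284, 193 and 393 CPM in FVB/N and at 315, 234, 228 and 1235 CPM in TgR. Replicates 1 to 3 of TgR lay within the FVB/N range, and only replicate 4 lay above it. The TgR mean was 503 ± 490 CPM (SD, n = 4) with replicate 4 and 259 ± 48.6 CPM (SD, n = 3) without it, against 290 ± 100 CPM (SD, n = 3) in FVB/N. The log2 difference of TgR from FVB/N was 0.76 (SE 0.60) with all libraries and -0.17 without replicate 4. Ordered by group mean, the levels ran from PFC TgR through hippocampus TgR and PFC FVB/N to hippocampus FVB/N. Each group in that order overlapped the next, and PFC TgR moved to the third place without replicate 4.

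miR-133a-3p, its partner on the same primary transcripts, had far fewer counts, 132 to 786 per library. In FVB/N hippocampus it was at 10.3, 14.3 and 10.6 CPM and in TgR hippocampus at 20.0422, 24.7 and 25.0348 CPM. These groups did not overlap either. The means were 23.3 ± 2.79 CPM in TgR and 11.7 ± 2.21 CPM in FVB/N (SD, n = 3 each), a 1.98-fold difference, or 0.98 on the log2 scale (SE 0.19).

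In the PFC, miR-133a-3p was at 22.7, 12.6 and 16.8 CPM in FVB/N and at 18.1, 13.9, 15.3 and 49.2 CPM in TgR. The 3 lower TgR values lay inside the FVB/N range. The log2 difference was 0.43 (SE 0.46) with replicate 4 and -0.16 without it. The minor arm miR-133a-5p had 2 to 57 counts, and the 57 counts (3.57 CPM) came from PFC TgR replicate 4. The next highest library, hippocampus TgR replicate 3, was at 0.845 CPM.

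**Figure D2:**
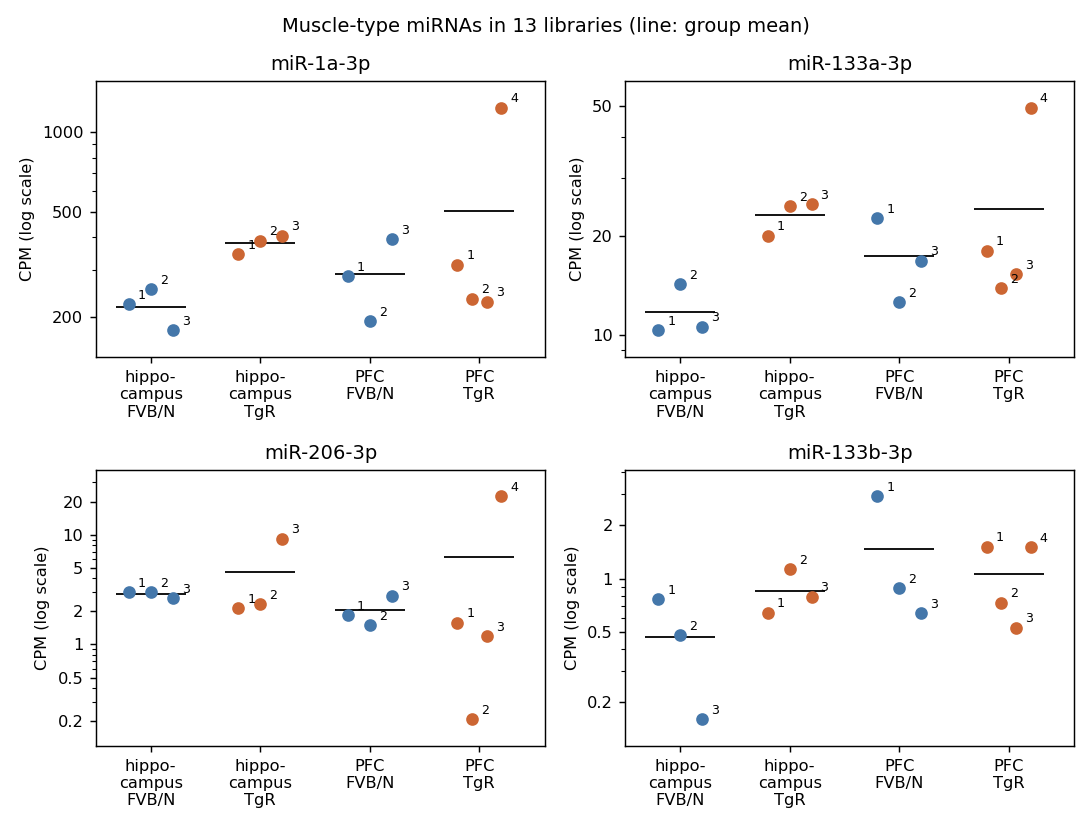
Each point is the CPM of 1 library on a log axis, with its replicate number, for 4 muscle-type miRNAs in the 4 groups, and the line is the group mean on the linear scale (blue FVB/N, orange TgR). In hippocampus all 3 TgR libraries lay above all 3 FVB/N libraries for miR-1a-3p and miR-133a-3p, and PFC TgR replicate 4 lay above every other library in 3 of the 4 panels.

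miR-206-3p was scarce, with 2 to 355 counts. In FVB/N hippocampus it was at 2.98, 3.00 and 2.65 CPM, and in TgR hippocampus at 2.14, 2.32 and 9.14 CPM. TgR replicates 1 and 2 lay below every FVB/N hippocampus and replicate 3 above every one. Replicate 3 was 4.10-fold above the mean of replicates 1 and 2 for miR-206-3p, but only 1.11-fold for miR-1a-3p and 1.12-fold for miR-133a-3p. The log2 difference of TgR from FVB/N was 0.67 (SE 0.53) with all libraries and -0.38 without TgR replicate 3, so its direction rested on that library.

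In the PFC, miR-206-3p was at 1.84, 1.51 and 2.77 CPM in FVB/N and at 1.58, 0.209, 1.19 and 22.2 CPM in TgR. The 0.209 CPM stands for 2 counts, and its exact Poisson interval (95%, counting error only) ran from 0.0253 to 0.754 CPM. TgR thus held both the lowest and the highest value of the 13 libraries. The mean was 6.30 ± 10.6 CPM (SD, n = 4) with replicate 4 and 0.992 ± 0.706 CPM (SD, n = 3) without it, against 2.04 ± 0.656 CPM (SD, n = 3) in FVB/N. The log2 difference was 1.59 (SE 1.21) with replicate 4 and -0.99 without it.

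miR-133b-3p, which lies next to miR-206 in the genome, was at 2 to 49 counts per library. It was at 0.764, 0.480 and 0.161 CPM in FVB/N hippocampus, at 0.641, 1.13 and 0.792 CPM in TgR hippocampus, at 2.91, 0.885 and 0.640 CPM in FVB/N PFC and at 1.51, 0.731, 0.528 and 1.50 CPM in TgR PFC. All groups overlapped. Its highest library was PFC FVB/N replicate 1, where miR-206-3p, at 1.84 CPM, lay inside the range of its group. The log2 difference of TgR from FVB/N was 0.82 (SE 0.48) in hippocampus and -0.53 (SE 0.58) in PFC, and the latter was 0.50 without PFC FVB/N replicate 1 and -0.73 without PFC TgR replicate 4. miR-1a-1-5p, at 0 to 4 counts, was too sparse for any comparison.

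Across the hippocampal comparison, 4 of the 6 members passed the low-count filter, and all 4 had a log2 difference above 0, with a median of 0.81 against -0.0031 over all 726 pairs tested. 2 of the 6 members, miR-1a-3p and miR-133a-3p, did not overlap between genotypes, beside 83 of the 726 pairs (11.4%) that were higher in TgR without overlap and 179 (24.7%) without overlap in either direction. The same 2 passed an adjusted p of 0.05 in edgeR's quasi-likelihood test, beside 25 pairs in all (3.44%) and 14 higher in TgR (1.93%). Each of the 2 is listed at 2 hairpins with nearly the same reads, so the pair counts can hold it at both. With 1 row per mature miRNA, 2 members were called, beside 30 mature miRNAs in all and 15 higher in TgR. Nothing is read from these counts, since the members were chosen on this contrast among others. Neither member passed when hippocampus FVB/N replicate 1, FVB/N replicate 3, TgR replicate 2 or TgR replicate 3 was left out, and only 1 of them passed without TgR replicate 1. Neither passed with all 13 libraries in one fit or with the replicate number as a block, and 1 passed with library size only. Both passed with DESeq2 (beside 56 pairs in all), its size factors in edgeR (26) and no filter (63). Both also passed with 1 row per mature miRNA and without FVB/N replicate 2 (28 pairs in all). The log2 differences themselves stayed between 0.63 and 0.90 for miR-1a-3p and between 0.85 and 1.13 for miR-133a-3p over all 6 omissions.

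Markers of other cell types also moved between the hippocampal groups. Summed red blood cell markers (miR-451a, miR-144-3p and miR-144-5p) were at 381 to 557 CPM in TgR and 783 to 900 CPM in FVB/N, and white blood cell markers (4 of 4 detected) at 415 to 450 CPM in TgR and 393 to 399 CPM in FVB/N. The 4 white blood cell markers did not rise together. By group mean, miR-150-5p was at 254 CPM in TgR and 215 CPM in FVB/N, and miR-223-3p at 2.08 and 2.03 CPM. miR-142a-3p (60.6 and 61.8 CPM) and miR-142a-5p (112 and 118 CPM) were lower in TgR. The part of the blood cell markers in the myomiR levels was not tested. Summed choroid plexus markers, all 5 of which were detected in every library, were at 5050, 1216 and 4125 CPM in TgR replicates 1, 2 and 3 and at 1205, 808 and 933 CPM in FVB/N. TgR replicate 2, whose choroid plexus sum was close to the highest FVB/N value, had 388 CPM of miR-1a-3p and 24.7 CPM of miR-133a-3p, above every FVB/N hippocampus. This is the value of a single library, and the part of choroid plexus RNA in the myomiR levels was not tested. Smooth muscle markers overlapped at 1921 to 2367 CPM in TgR and 2129 to 2833 CPM in FVB/N, endothelial markers at 8700 to 9828 CPM and 9378 to 15446 CPM, and epithelial markers at 128 to 216 CPM and 189 to 474 CPM. Of the 3 heart and slow muscle markers only miR-499-5p was above 0 in every library, and the sum of the 3 was at 51.8 to 66.8 CPM in TgR and 39.7 to 62.4 CPM in FVB/N.

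In the PFC comparison, 3 of the 4 members tested had a log2 difference above 0, with a median of 0.59 against 0.0015 over 730 pairs. All overlapped between genotypes and none was called, beside 1 pair called in all (0.137%) and 37 pairs without overlap in either direction (5.07%). Without replicate 4 the median was -0.45, and the members still overlapped. The PFC and hippocampal comparisons share no library, and the difference between their effects was not tested for the members.

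The region comparison in FVB/N mice set hippocampus against PFC in animals without the transgene. miR-1a-3p had a log2 difference of -0.39 (SE 0.27), miR-133a-3p of -0.55 (SE 0.28), miR-133b-3p of -1.67 (SE 0.66) and miR-206-3p of 0.51 (SE 0.30), where a value below 0 means lower in hippocampus. The difference of miR-133b-3p was -0.63 without PFC FVB/N replicate 1. Only miR-206-3p was on the side of hippocampus, and all 4 overlapped between regions. None was called, beside 24 of 718 pairs called in all (3.34%) and 165 without overlap (23.0%). The members' median was -0.47 against -0.0034 over all pairs.

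In TgR mice the region comparison turned on PFC TgR replicate 4. With it, hippocampus minus PFC was -0.36 (SE 0.56) for miR-1a-3p, -0.02 (SE 0.41) for miR-133a-3p, -0.45 (SE 1.17) for miR-206-3p and -0.33 (SE 0.40) for miR-133b-3p on the log2 scale, and all overlapped. miR-133a-5p overlapped as well, at 0.623 ± 0.210 CPM (SD, n = 3) in hippocampus and 1.23 ± 1.58 CPM (SD, n = 4) in PFC. Without replicate 4 its PFC mean was 0.444 ± 0.271 CPM (SD, n = 3), below that of hippocampus. The sign for miR-133a-3p also depended on the scaling, as it was above 0 with library size alone. Without replicate 4 the values were 0.56 for miR-1a-3p, 0.57 for miR-133a-3p and 2.11 for miR-206-3p, and each of these was higher in every hippocampus than in every remaining PFC library, as were 107 of the 738 pairs (14.5%). miR-133b-3p stayed at -0.14 and overlapped. With all libraries no member was called, beside 83 of 738 pairs (11.2%), and 169 pairs did not overlap (22.9%). miR-133a-5p passed the filter in this comparison alone, through the 57 counts of replicate 4. The region comparisons share their libraries with the genotype comparisons, so the 4 sets of differences are not independent of each other.

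**Figure D3:**
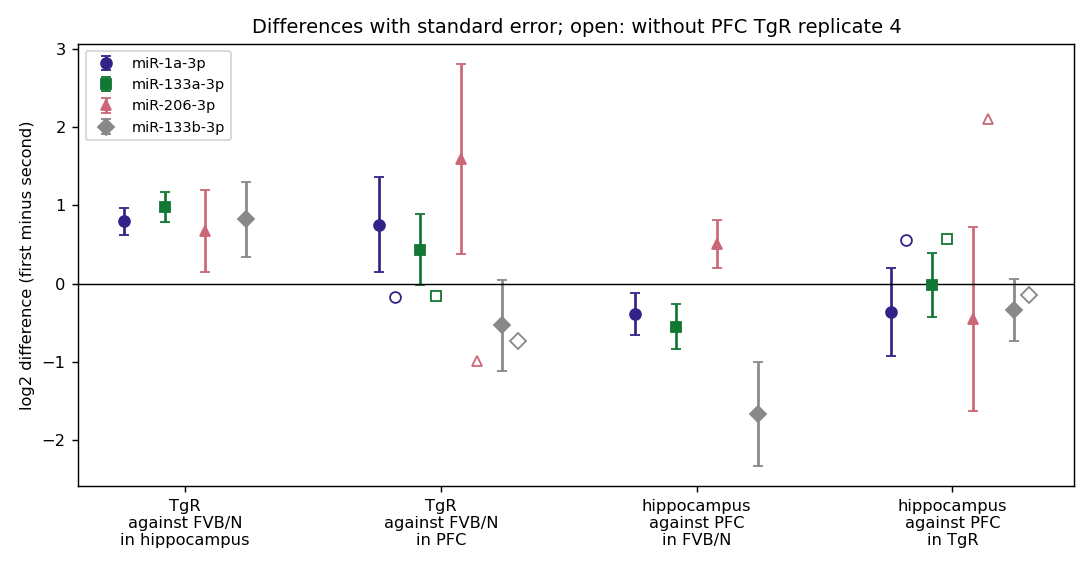
The vertical axis gives the log2 difference (first group minus second) of 4 muscle-type miRNAs in the 4 comparisons, with bars for the standard error, and open symbols without bars for the value without PFC TgR replicate 4. In hippocampus the genotype differences of all 4, among them miR-1a-3p (0.80) and miR-133a-3p (0.98), lay further from 0 than their bars reach. Other points of the figure did so too, so this does not set them apart. Leaving out replicate 4 turned the sign for miR-1a-3p, miR-133a-3p and miR-206-3p in both comparisons that use PFC TgR.

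The members kept different proportions to each other. Per 100 counts of miR-1a-3p there were 3.98 to 7.99 counts of miR-133a-3p (median 5.93), the lowest in PFC TgR replicate 4. In the other 12 libraries the ratio was 4.29 to 7.99. No ratio of miRNAs outside the members was taken as a background. miR-206-3p ranged far more widely, from 0.0892 to 2.26 per 100 counts of miR-1a-3p. In FVB/N mice its ratio was 1.34, 1.18 and 1.49 in hippocampus and 0.648, 0.780 and 0.706 in PFC, with no overlap between the regions. TgR hippocampus replicates 1 and 2, at 0.620 and 0.599, lay below the FVB/N hippocampi and replicate 3, at 2.26, above them. In TgR PFC it was 0.501, 0.0892 and 0.520 in replicates 1 to 3, below the FVB/N PFC, and 1.80 in replicate 4. miR-133b-3p stood at 1.52 to 12.8 per 100 counts of miR-133a-3p. The 2 arms of miR-133a were at 1.31 to 4.18 counts of the 5p arm per 100 of the 3p arm in 12 libraries and at 7.25 in PFC TgR replicate 4.

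**Figure D4:**
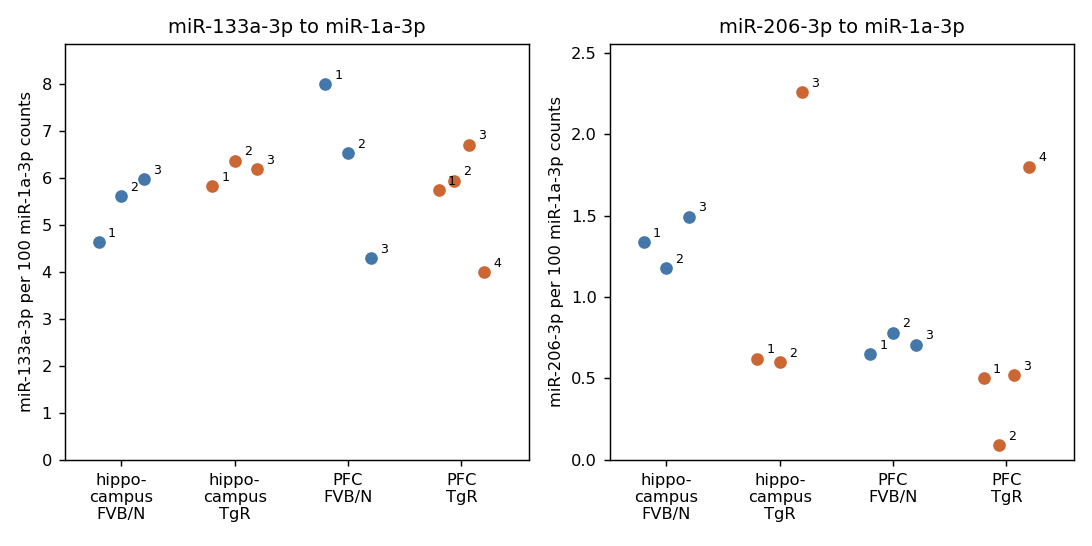
Each point is 1 library with its replicate number, in blue for FVB/N and orange for TgR, and the vertical axes start at 0. The left panel gives miR-133a-3p counts per 100 miR-1a-3p counts, between 3.98 and 7.99, and the right panel gives miR-206-3p counts per 100 miR-1a-3p counts, between 0.0892 and 2.26, highest in hippocampus TgR replicate 3 and PFC TgR replicate 4.

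miR-1a-3p and miR-133a-3p moved together over the 13 libraries, with a Pearson correlation of log2 CPM of 0.93 and a Spearman correlation of 0.90, and 0.85 and 0.87 without PFC TgR replicate 4. Leaving out the 2 libraries farthest from the median of miR-1a-3p, PFC TgR replicate 4 and hippocampus FVB/N replicate 3, gave a Pearson correlation of 0.81. With group means subtracted it was 0.92, and 0.64 without replicate 4. For miR-1a-3p and miR-206-3p, which share a seed but not a transcript, the Pearson correlation was 0.72 and the Spearman correlation 0.49, and 0.40 and 0.35 without replicate 4. The neighbours miR-206-3p and miR-133b-3p had a Pearson correlation of 0.12 and a Spearman correlation of -0.05, and -0.096 and -0.22 without replicate 4. These values describe 13 libraries that share depth and group structure, and no p is attached.

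Among the 641 other mature miRNAs that passed the filter, those with the highest Spearman correlation to miR-1a-3p were miR-382-3p (0.81), miR-362-5p (0.74), miR-455-3p (0.74), miR-1264-3p (0.74) and miR-30c-2-3p (0.73). For miR-133a-3p they were miR-410-3p (0.84), miR-690, miR-382-3p, miR-1298-3p and miR-340-5p. For miR-206-3p they were miR-92a-3p (0.87), miR-3473a, miR-344-3p, miR-338-5p and miR-668-3p, and for miR-133b-3p miR-547-3p (0.78), miR-140-5p, miR-365-1-5p, miR-8112 and miR-6929-3p. Once group means were subtracted, the miRNAs most like miR-1a-3p by Pearson correlation were miR-345-3p (0.83), miR-296-5p, miR-3085-3p, miR-666-5p and miR-98-5p. Those most like miR-133a-3p were miR-3085-3p (0.80), miR-3473b, miR-331-3p, miR-449a-5p and miR-3066-5p. Those most like miR-206-3p were miR-344-3p (0.87), miR-6948-3p, miR-666-5p, miR-1298-3p and miR-338-5p, and those most like miR-133b-3p were miR-8112 (0.81), miR-3473b, miR-3072-3p, miR-127-5p and miR-16-1-3p. The lists of 5 from the 2 measures shared 0 names for miR-1a-3p and miR-133a-3p, 1 for miR-133b-3p and 2 for miR-206-3p. Without PFC TgR replicate 4, the second measure named again only 1 of its 5 for miR-1a-3p (miR-345-3p), miR-133a-3p (miR-3473b) and miR-206-3p (miR-338-5p), and 3 for miR-133b-3p. The Spearman lists were not repeated without that library. No other library was left out for comparison, so dependence on this library cannot be told from a general instability of such lists. None of the names above was another muscle-associated miRNA of the list below.

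Other muscle-associated miRNAs, chosen by their known expression in cardiac, skeletal or smooth muscle, are not part of the set of members and were tested, though this list too was drawn up with earlier results of these data known. The list held 17 listed mature miRNAs, 12 of which were tested in each comparison with edgeR (quasi-likelihood, Benjamini-Hochberg over all tested pairs). In hippocampus 0 of the 12 were called between genotypes at an adjusted p of 0.05, with 2 at an unadjusted p under 0.05 (127 of all 726 pairs), and the median log2 difference was -0.18. miR-1b-3p, a relative of miR-1a, was at 0.922 ± 0.220 CPM in TgR and 0.825 ± 0.188 CPM in FVB/N hippocampus (SD, n = 3 each), a log2 difference of 0.17 (SE 0.32, adjusted p = 0.83). miR-499-5p had a difference of 0.19 (SE 0.20, adjusted p = 0.66).

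The largest differences of that list in hippocampus belonged to the miR-486 pair, which is made in muscle and is also abundant in red blood cells. miR-486a-5p was at 120 ± 40.8 CPM in TgR and 258 ± 47.6 CPM in FVB/N hippocampus (SD, n = 3 each), with a log2 difference of -1.09 (SE 0.25, edgeR adjusted p = 0.051). miR-486b-5p had a difference of -1.07 (SE 0.25, edgeR adjusted p = 0.054). The genotypes did not overlap for either. Both were lower in TgR hippocampus, as were the summed red blood cell markers, while miR-1a-3p and miR-133a-3p were higher. In PFC, where the genotypes overlapped, mean miR-486a-5p was lower in TgR (191 against 264 CPM) and mean miR-451a higher (1197 against 915 CPM). The part of red blood cells in the miR-486 levels was not tested. The 2 are near-identical in sequence, so they are not separate evidence, and DESeq2 called both.

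In PFC and between regions of FVB/N mice, 0 of the 12 were called by edgeR, and 0 had an unadjusted p under 0.05. DESeq2 also called 0 in both. Between regions of TgR mice 1 of 12 was called, beside 83 of all 738 pairs (11.2%), and 5 had an unadjusted p under 0.05, beside 178 of all pairs. This was miR-143-3p, a smooth muscle miRNA, which fell from 2851 ± 153 CPM (SD, n = 4) in PFC to 2115 ± 241 CPM (SD, n = 3) in hippocampus, a log2 difference of -0.41 (SE 0.098, edgeR adjusted p = 0.028). With hippocampus TgR replicate 1 or 2 or PFC TgR replicate 1 or 3 left out, 0 of the list were called, and with hippocampus TgR replicate 3 left out, 3 were. Without PFC TgR replicate 4 the difference of miR-143-3p was -0.44 (SE 0.11, edgeR adjusted p = 0.041). miR-499-5p was at 60.5 ± 7.92 CPM (SD, n = 3) in TgR hippocampus and 42.6 ± 7.99 CPM (SD, n = 4) in TgR PFC, a difference of 0.53 (SE 0.17, edgeR adjusted p = 0.089). Its libraries did not overlap, but it did not pass the threshold, and without PFC TgR replicate 4 its difference was 0.58 (SE 0.19, edgeR adjusted p = 0.097).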

How the data were processed

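Small RNA libraries were made from total RNA of each animal with a NEBNext kit. The authors aligned the reads to miRBase 21 with miRExpress 2.0 at default settings and deposited, for each library, the raw counts of reads per pair of hairpin and mature miRNA. Pairs that were not listed were taken as 0. Groups and replicate numbers came from the sample titles.

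The counts were scaled here to CPM with TMM factors, and log2 CPM used a prior count of 2. Each of 4 comparisons was fitted by itself in edgeR 4.0.16 (R 4.3.3, filterByExpr with its minimum count of 10, quasi-likelihood test, Benjamini-Hochberg adjustment over all tested pairs, called at an adjusted p under 0.05). The scripts were tested on simulated data. The authors' own test was DESeq2, which was the alternative here (version 1.42.0). The other alternatives were its size factors in edgeR, library size only, no filter, an adjusted p under 0.1, 1 row per mature miRNA, all 13 libraries in one fit, the replicate number as a block, and each library left out. Overlaps and correlations without PFC TgR replicate 4 were chosen after seeing the data.

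The members and the lists were chosen with earlier results of these data known. The text names all arms of the member hairpins, the other muscle-associated miRNAs, the cell type markers, and for each main arm the 5 other miRNAs with the highest correlation by each of 2 measures. Cell type markers were summed CPM of miRNAs known for neurons, red and white blood cells, choroid plexus, smooth muscle, endothelium, epithelium, and heart and slow muscle. For a mature miRNA listed at several hairpins, the hairpin with the highest total was used. Precision at low levels is limited by depth, and for miR-1a-3p by the spread between animals.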

Additional observations from a re-analysis of the deposited data

Results flagged for a closer look

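The gap between the highest or lowest of the 4 PFC TgR libraries and its nearest neighbour, as a share of the group's whole range, was compared with Dixon's 95% critical value for the miRNAs described here. Of 18 such groups of 4, 7 were past it. Chance alone gives about 1 such group in 20, and the values below are not independent, since 5 of them come from the same library. That chance rate does not apply to the 4 myomiRs among the 7, which were picked because they stood out in these libraries, so their values are a description only.

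PFC TgR replicate 4 was the far library for miR-1a-3p (0.914), miR-133a-3p (0.882), miR-206-3p (0.938) and miR-133a-5p (0.851), and for miR-208b-3p (0.886), where it rests on 10 counts. PFC TgR replicate 1 was the far library for the smooth muscle miRNA miR-143-3p (0.838) and for miR-378a-5p (0.858).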

How the results depend on the processing

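In hippocampus the TgR minus FVB/N differences of miR-1a-3p and miR-133a-3p were above 0 in every alternative tried. Of these 2, 0 were called with all 13 libraries in one fit or with the replicate number as a block. With library size only 1 was called, and when single libraries were left out 0 to 2 were. Both were called with DESeq2, its size factors in edgeR, no filter or 1 row per mature miRNA. Of the 228 alternative values of single myomiRs, 219 lay within 1 SD of the main value and 9 moved further, and the sign differed in 17. The SD here is the pooled spread of log2 CPM within the groups compared, with PFC TgR replicate 4 included. A value within 1 SD could thus still turn its sign. For miR-1a-3p in PFC, 0.76 and the -0.17 without replicate 4 counted as within 1 SD. The cause of these changes was not tested.

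Pairs called in hippocampus were 48 at an adjusted p under 0.1, 56 with DESeq2, 63 without a filter, 9 with the block and 1 to 28 with a library left out, against 25. For the FVB/N region comparison they were 40 in one fit, 37 with DESeq2, 56 without a filter and 4 to 51 with a library left out, against 24, and for the TgR region comparison 125 at an adjusted p under 0.1 and 45 to 128 with a library left out, against 83. In the FVB/N region comparison 1 myomiR was called without a filter, beside 56 pairs in all. With a library left out 0 to 1 were called there, 1 without PFC FVB/N replicate 3, beside 51 pairs in all. In the TgR region comparison 1 was called without PFC TgR replicate 4 (0 to 1), where the omissions gave 45 to 128 pairs in all. Nothing is read from these member calls, since the members were picked from these same data. Other muscle-associated miRNAs called in hippocampus were 2 with 1 row per mature miRNA, one fit, DESeq2 or no filter, 1 with DESeq2 size factors, and 0 to 2 with a library left out. In the TgR region comparison they were 0 in one fit and 0 to 3 with a library left out.

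The members' median log2 difference ranged with a library left out from 0.60 to 0.96 in hippocampus, -0.45 to 0.79 in PFC, -0.67 to -0.31 for the FVB/N regions and -0.64 to 0.56 for the TgR regions. With the block it was -0.38 in PFC and 0.56 for the TgR regions, where PFC TgR replicate 4 drops out because no other group has that number. Library size only raised the share of higher calls from 56% to 66.7% in hippocampus and from 49.4% to 64.8% for the TgR regions, where it moved the median of all pairs to 0.13. The replicate numbers were not taken to pair the samples: deviations of same-numbered libraries correlated at -0.070 to 0.13 in hippocampus, -0.22 to 0.42 in PFC, 0.050 to 0.19 in FVB/N and -0.13 to 0.41 in TgR, and the FVB/N PFC libraries carry a second numbering that differs from their titles. Depth limits miR-133b-3p, miR-133a-5p and miR-206-3p, whose counts fell to 2 in single libraries.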
